A study of Mus musculus with 6 samples.

Results

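Hyaluronan is a long, unsulfated sugar polymer of the extracellular matrix, built at the plasma membrane and released into the space around the cell. The genes examined here make it, bind it or break it down: the synthases Has1, Has2 and Has3, the receptor Cd44, the hyaluronan-depolymerizing protein Cemip, and the hyaluronidases Hyal1 and Hyal2. The synthases join UDP-glucuronic acid and UDP-N-acetylglucosamine into the chain, and Has2 is the synthase best known from developing tissue. Cd44 is the main cell-surface receptor, Hyal2 cuts long chains into fragments at the cell surface, and Hyal1 degrades fragments in lysosomes. In lung, hyaluronan is known for its turnover during injury and repair, and TGF-β1 is a secreted factor of wound repair and fibrosis.

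The members were these 7 genes, of 22910 genes that the array reached through a RefSeq accession, and they were held by 10 probes. 2D-MAOs, organoids of airway epithelial cells from C57BL/6 mouse lung that were plated as a flat culture, were compared in 2 groups of 3. From day 3 the TGF-β1 group received TGF-β1 and the control group did not, and both groups were kept without noggin, a BMP antagonist, and without A83-01, an inhibitor of the TGF-β type I receptor. The cells were collected on day 7, RNA of each culture was bound to 1 single-dye array, and the microarray methods give no concentration of TGF-β1. The age and number of donor mice are not given in the sources used here, so the p-values measure only the spread between these cultures. In RNA from a whole culture, a change in the share of a cell type and a change in RNA per cell cannot be told apart.

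Between 55.0% and 59.0% of probes were well above background on each array, a mark that the image software sets per spot, and no probe for a transcript was saturated (0 spots on each array). TGF-β1 replicate 3 lay apart from the other treated arrays, with a limma array weight of 0.297 against 2.27 and 1.50 for replicates 1 and 2. Control replicate 3 also had a low weight, 0.447, against 2.10 and 1.05 for control replicates 1 and 2. The results of the members are given with and without TGF-β1 replicate 3. All 10 markers of airway epithelium in the list used here were well above background on all 6 arrays. The lists of other cells were seen in part. Well above background on at least 1 array were 3 of 6 mesothelial, 3 of 8 endothelial and 5 of 10 leukocyte markers, among them Msln, Upk1b, Pecam1, Esam, Csf1r, Itgam, Cd68 and Cd3e on all 6 arrays. Upk3b, Wt1 and Lrrn4 of mesothelium, Cdh5, Kdr, Tek, Emcn and Cldn5 of endothelium, and Ptprc, Adgre1, Cd79a, Lyz2 and Coro1a of leukocytes were not well above it on any array.

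Of the 7 genes, Has2 was the one that passed the test, rising 3.13-fold in TGF-β1-treated 2D-MAOs. Has3 did not pass, and its difference, similar to that of Has2 with the main processing, was set against controls mostly at background. Cd44, Hyal1 and Hyal2 had higher means after TGF-β1 without passing, and each of these was near the control level on the array of TGF-β1 replicate 3. Has1 and Cemip were not well above background on any of the 6 arrays. A gene passed when it changed at least 2-fold and limma, a linear model with a spread shared among genes, gave a Benjamini-Hochberg adjusted p under 0.05. Of the 14345 genes tested 1.38% passed, 1.19% as higher and 0.188% as lower. Members numbering 5 could be tested, since the other 2 did not reach the background filter, and the filter asks only for 3 of the 6 arrays, so that a gene seen in 1 group alone can enter. All 5 had a log2 fold change above 0, as had 45.8% of the genes tested. The median log2 fold change of these 5 was that of Cd44, 0.92, where the median over all genes tested was -0.03.

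**Figure D1:**
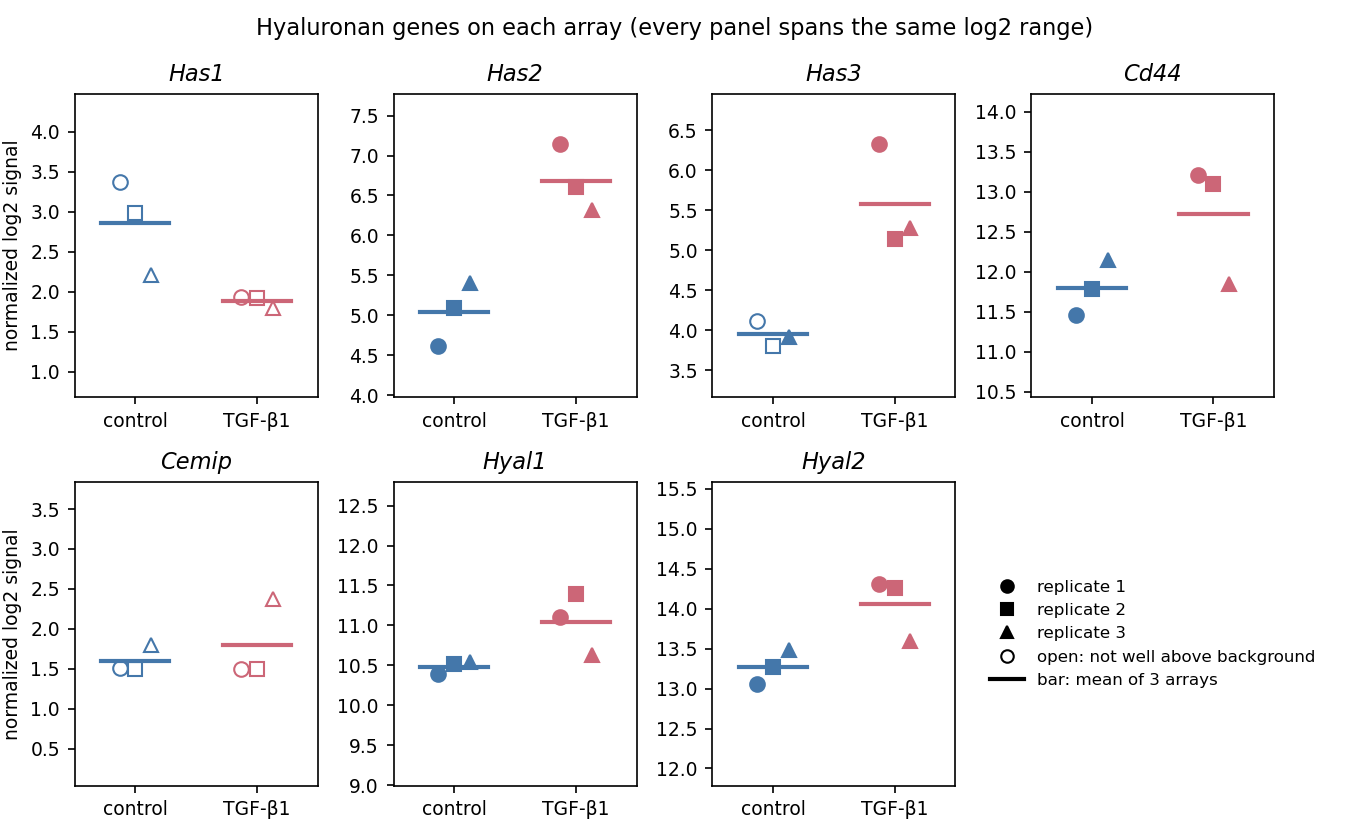
Normalized log2 signal (vertical axis, quantile-normalized) of each of the 7 genes on the 3 control and 3 TGF-β1 arrays, for the brightest probe of a gene with several; marker shapes give the replicate, open markers were not well above background, and bars are means of 3 arrays. Has2 and Has3 show separate groups, Cd44 overlaps because TGF-β1 replicate 3 (11.85) lies among the controls, and Has1 and Cemip have open markers throughout.

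The synthase Has2 had normalized log2 signals of 4.61, 5.10 and 5.41 on the control arrays and 7.14, 6.60 and 6.32 on the TGF-β1 arrays, in the order of replicates 1, 2 and 3. Every treated array was above every control array, and replicate 3 was the lowest of the treated arrays. The means were 5.04 ± 0.40 and 6.69 ± 0.42 (SD, n = 3 each), so the log2 difference was 1.65 (95% interval 1.00 to 2.30, SE 0.27, limma adjusted p = 0.0388). The software placed its probe well above background on each of the 6 arrays, yet the spot was dim in controls: its brightness over the local background was 1.8 to 2.26 there and 3.57 to 6.25 in the treated cultures. The size of the change therefore depended on how background was handled: with normexp correction and an offset of 50 it was 0.85 (limma adjusted p = 0.0262), under 2-fold. The call also rested on single arrays. Leaving out control replicate 1 gave Has2 a limma adjusted p of 0.105 and leaving out control replicate 2 gave 0.128. Leaving out TGF-β1 replicate 1 gave 0.112 and leaving out TGF-β1 replicate 2 gave 0.126 by limma, while the log2 fold change stayed between 1.42 and 1.83 over all 6 arrays left out in turn. Without TGF-β1 replicate 3 it was 1.83 (limma adjusted p = 0.0142). Has2os, a noncoding gene that overlaps Has2 on chromosome 15 and was looked up after its values were seen, differed by 0.56 on the log2 scale (limma adjusted p = 0.324). Without TGF-β1 replicate 3 Has2os differed by 0.92 (limma adjusted p = 0.0231), under 2-fold. On TGF-β1 replicate 3 it was at 4.35, below all 3 controls (4.39 to 4.62), whereas Has2 on that array was above them.

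Has3, the synthase usually active in epithelia, had log2 signals of 4.12, 3.80 and 3.92 in controls and 6.33, 5.15 and 5.28 after TGF-β1. The groups did not overlap, and replicate 1 stood highest among the treated arrays. The log2 fold change was 1.64 (95% interval 0.90 to 2.37, SE 0.31, limma adjusted p = 0.0546). Of the control arrays, replicate 3 was the only 1 on which the probe stood well above background, while it did so on each of the 3 treated arrays. Spot brightness over local background was 1.47 to 1.59 in controls and 2.11 to 3.94 in the treated cultures. Has3 thus entered the filter through the treated arrays, and its fold is set against controls mostly at background. With normexp background the log2 fold change was 0.50 (limma adjusted p = 0.126). Has3 passed both thresholds without TGF-β1 replicate 1, at 1.27 (limma adjusted p = 0.0432), and without TGF-β1 replicate 3, at 1.79 (0.0252), and with none of the other 4 arrays left out.

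Has1, the third synthase, was dim everywhere. Its signals were 3.37, 2.99 and 2.21 in controls and 1.93, 1.92 and 1.79 after TGF-β1, and none of the 6 arrays marked the spot as well above background. The control values all lay above the treated ones, but at a brightness that the image software did not separate from background, so no fold is given. With 3 arrays against 3, an exact permutation test on 1 gene cannot go below p = 0.1, and that is its two-sided value for Has1, Has2, Has3, Hyal1 and Hyal2 alike. Groups without overlap and with TGF-β1 higher occurred in 12.9% of all genes tested, and in Has2, Has3, Hyal1 and Hyal2 among the members that were tested.

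Cd44, which links hyaluronan to the actin cytoskeleton through ERM proteins, had log2 signals of 11.46, 11.78 and 12.15 in controls and 13.21, 13.10 and 11.85 after TGF-β1. TGF-β1 replicates 1 and 2 were above every control, and TGF-β1 replicate 3 lay between the control values. Cd44 thus differed by 0.92 on the log2 scale, with a 95% interval from 0.02 to 1.82 (SE 0.38, limma adjusted p = 0.218). Without TGF-β1 replicate 3 it was 1.36 (limma adjusted p = 0.0156), which passed, and with any of the other 5 arrays left out it did not pass, the lowest value being 0.68 without TGF-β1 replicate 1. The arrays of replicate 3 of each group lay in the other row of the slide than the remaining 4. Within the row of replicates 1 and 2 the difference for Cd44 was 1.53, and between the 2 arrays of the other row it was -0.30, a value from 1 array against 1. In the same order the differences were 2.02 and 0.91 for Has2, 1.78 and 1.36 for Has3, 0.79 and 0.09 for Hyal1, and 1.12 and 0.12 for Hyal2.

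Cd44 is spliced into many forms, and 3 probes of the array carried its accession, all well above background on all 6 arrays. Relative to their control means, the probes on TGF-β1 replicate 1 were higher by 1.15, 1.51 and 1.41 on the log2 scale from the dimmest to the brightest probe. On TGF-β1 replicate 2 they were higher by 1.38, 1.32 and 1.30. On TGF-β1 replicate 3 the dimmest stood at -0.26, the middle at 0.22 and the brightest at 0.05. All 3 probes thus placed replicates 1 and 2 far above the controls and replicate 3 near them, and the probes differed in whether replicate 3 was just above the controls (the middle probe) or among them. Their log2 fold changes were 0.76 (SE 0.41), 1.02 (SE 0.32) and 0.92 (SE 0.37), with limma adjusted p over the 32460 probes tested of 0.278, 0.122 and 0.174. The files do not give the exons that the probes lie in, so no splice form is named.

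**Figure D2:**
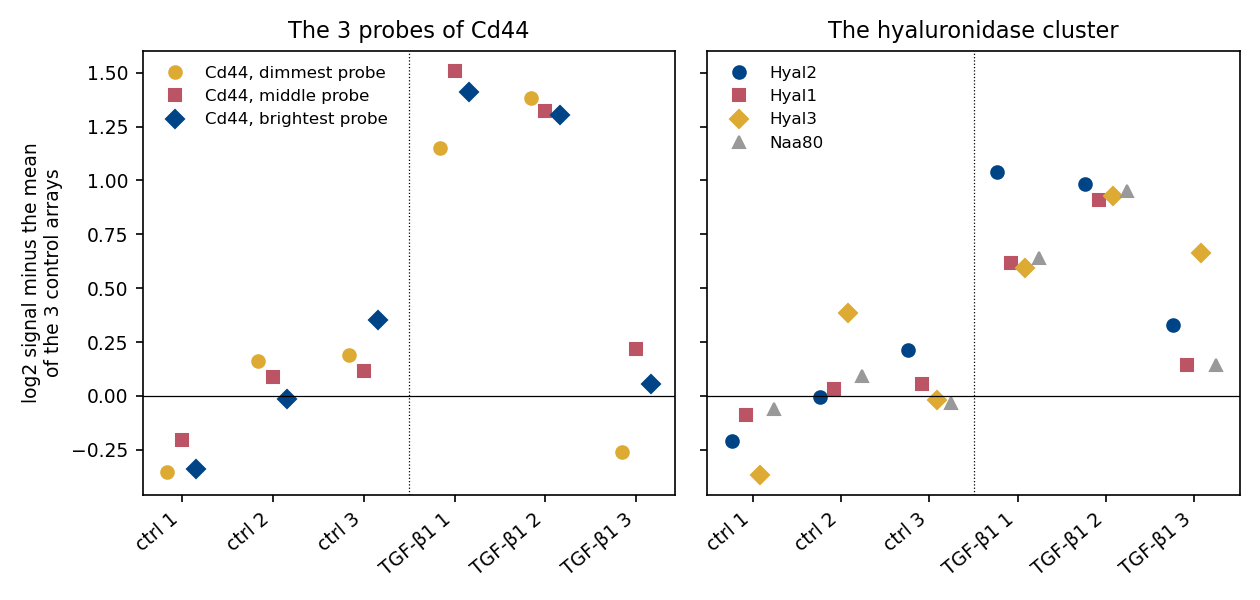
Log2 signal minus the mean of the 3 control arrays (vertical axis) on each array, for the 3 probes of Cd44 (left) and for Hyal2, Hyal1 and their chromosome 9 neighbours Hyal3 and Naa80 (right). The Cd44 probes reach 1.15 to 1.51 on TGF-β1 replicates 1 and 2 and -0.26 to 0.22 on TGF-β1 replicate 3, and Hyal1 and Naa80 lie at nearly the same height on every array.

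Among the genes of breakdown, Hyal2 had log2 signals of 13.06, 13.27 and 13.48 in controls and 14.31, 14.25 and 13.60 after TGF-β1. Replicates 1 and 2 stood well clear of the controls, and replicate 3 was above the highest control by a small margin. The log2 fold change was 0.78 (95% interval 0.27 to 1.30, SE 0.22, limma adjusted p = 0.125), or 1.72-fold, and the gene did not pass. Without TGF-β1 replicate 3 it was 1.01 (limma adjusted p = 0.0140) and passed. Hyal1 had 10.40, 10.52 and 10.54 in controls and 11.10, 11.39 and 10.63 after TGF-β1, again with replicate 3 closest to the controls. Hyal1 differed by 0.56 on the log2 scale (95% interval 0.09 to 1.03, SE 0.20, limma adjusted p = 0.177). Without TGF-β1 replicate 3 Hyal1 had 0.76 (limma adjusted p = 0.0206), still under 2-fold. The Hyal1 spots were bright, at 49.1 to 80.9 over local background, and normexp background moved the change of Hyal1 to 0.51 and that of Hyal2 to 0.73.

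Hyal1, Hyal2 and Hyal3 lie close together on chromosome 9, and Hyal1 overlaps Hyal3 and Naa80, the gene of an actin N-acetyltransferase, in the RefSeq annotation. Naa80, looked up after its values were seen, differed from its control mean by 0.64, 0.95 and 0.15 on the 3 TGF-β1 arrays, beside 0.62, 0.91 and 0.14 for Hyal1. The files do not say where in the overlap the probes of Hyal1 and Naa80 lie, and whether their signals come from separate transcripts was not tested. Hyal3, a hyaluronidase-like gene of the same cluster, had log2 signals of 4.89, 5.64 and 5.24 in controls and 5.85, 6.19 and 5.92 after TGF-β1. It kept replicate 3 with the other treated arrays, unlike Hyal1 and Hyal2, and it differed by 0.73 on the log2 scale (limma adjusted p = 0.128).

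Cemip, which binds hyaluronan and is needed for its depolymerization in fibroblasts, was at background on both of its probes. The first gave 1.51, 1.50 and 1.80 in controls and 1.50, 1.50 and 2.37 after TGF-β1, and the second ranged from 1.60 to 1.66 over all 6 arrays. A level below what this array detects was therefore not distinguished from absence in either group. Cemip2, its transmembrane relative, had signal well above background throughout and differed by 0.46 on the log2 scale (limma adjusted p = 0.219).

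**Figure D3:**
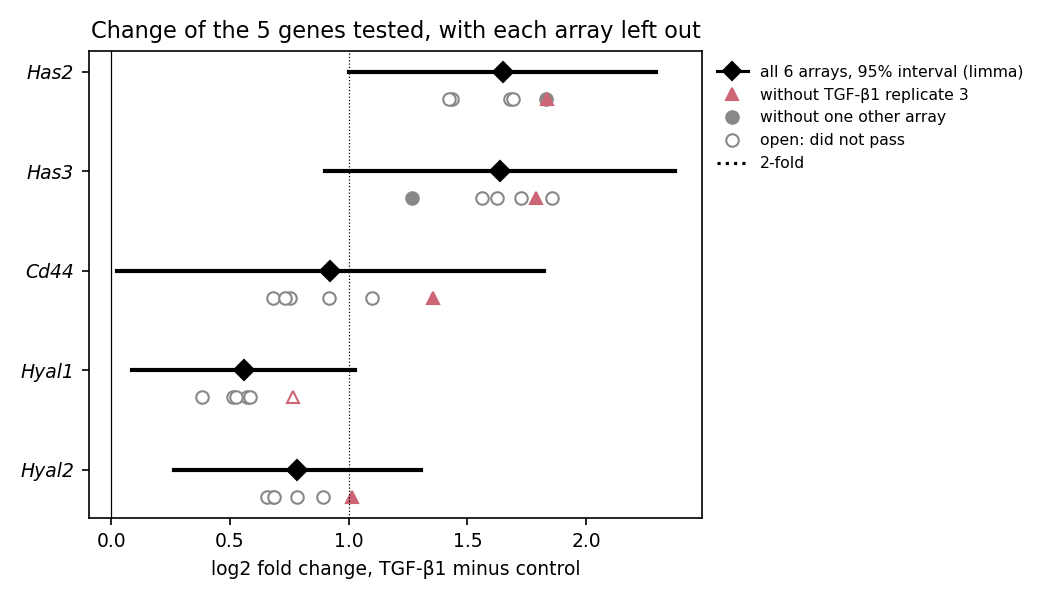
Log2 fold change, TGF-β1 minus control (horizontal axis), of the 5 genes that could be tested: diamonds with 95% intervals from limma use all 6 arrays, and the markers beneath leave out 1 array each, filled where the gene passed. With TGF-β1 replicate 3 left out (triangles) Has2, Has3, Cd44 and Hyal2 passed, at 1.83, 1.79, 1.36 and 1.01, and Hyal1 has an open marker at 0.76.

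Leaving out TGF-β1 replicate 3 raised the number of members that passed from 1 to 4 of the 5 tested, and the share of all genes that passed as higher from 1.19% to 3.86%. Has3, among these 4, is set against controls mostly at background. Leaving out control replicate 1, control replicate 2 or TGF-β1 replicate 2 left 0 members, where 0.432%, 0.509% and 0.342% of all genes passed as higher. Leaving out control replicate 3 left Has2 and leaving out TGF-β1 replicate 1 left Has3, against 1.05% and 0.411% of all genes. The members differed in how far replicate 3 departed from the other treated arrays. Has2 was 1.28 above its control mean there and Has3 1.33, against 0.33 for Hyal2, 0.14 for Hyal1 and 0.05 for Cd44. The root mean square difference between profiles over the 6 arrays, each gene taken minus its own mean, was lowest between Hyal1 and Hyal2, at 0.17, followed by Cd44 and Hyal2 at 0.23 and by Cd44 and Hyal1 at 0.35. Has2 and Has3 differed by 0.36 from each other, and Has3 by 0.70 from Hyal1. These are descriptions over 6 arrays of 2 groups.

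The same measure was used to find the genes most like Has2 and Cd44, the 2 members with the largest change among those well above background on all 6 arrays, out of 13516 genes. Nearest to Has2 were Adcy2, an adenylyl cyclase gene, at 0.19, Dll1, which encodes a Notch ligand, at 0.21, and Rflnb, the gene of an actin-organizing protein, at 0.22, where the median over all genes was 0.92. Adcy2 had a log2 fold change of 1.73, Dll1 of 1.26 and Rflnb of 1.82, with limma adjusted p of 0.0201, 0.0623 and 0.00892. Nearest to Cd44 were Jag1, another Notch ligand, at 0.0613, the receptor gene Notch3 at 0.0684, and the semaphorin receptor gene Plxnd1 at 0.0703, against a median of 0.71. None of these 3 passed with all arrays, with log2 fold changes of 0.85, 0.94 and 0.92 and limma adjusted p of 0.249, 0.222 and 0.214. All 3 passed once TGF-β1 replicate 3 was left out, at 1.28, 1.39 and 1.35 (limma adjusted p = 0.0241, 0.0144 and 0.0129), as did Dll1 at 1.40 (0.0253). All of these genes were picked for profiles close to Has2 or Cd44 on the same 6 arrays. Their fold changes and calls, with and without replicate 3, therefore follow from that choice and are description only.

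The promoter sequences of Cd44, Hyal1 and Hyal2, whose profiles were the most alike, are shown with that of Has1, the synthase at background. They are the 250 bases before the transcription start listed by RefSeq for GRCm38.p6, printed from 5′ to 3′ of the gene: Cd44 at chr2:102901666-102901915 on the minus strand, Hyal1 at chr9:107576700-107576949 and Hyal2 at chr9:107568913-107569162 on the plus strand, and Has1 at chr17:17855189-17855438 on the minus strand. Capitals mark matches on either strand to CAGAC, the core that Smad proteins bind, to TGANTCA, the AP-1 site, or to GGGCGG, the GC box, and no match of a motif overlaps a match of another motif.
Cd44: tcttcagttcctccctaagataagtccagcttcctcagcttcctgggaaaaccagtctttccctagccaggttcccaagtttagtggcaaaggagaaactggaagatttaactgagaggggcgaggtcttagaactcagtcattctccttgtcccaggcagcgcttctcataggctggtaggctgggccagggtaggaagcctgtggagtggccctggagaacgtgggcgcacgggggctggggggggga
Hyal1: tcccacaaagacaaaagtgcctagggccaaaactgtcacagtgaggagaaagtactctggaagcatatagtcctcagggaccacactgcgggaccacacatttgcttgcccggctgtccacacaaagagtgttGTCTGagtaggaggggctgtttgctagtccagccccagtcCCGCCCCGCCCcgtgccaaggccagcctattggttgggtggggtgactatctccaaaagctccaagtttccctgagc
Hyal2: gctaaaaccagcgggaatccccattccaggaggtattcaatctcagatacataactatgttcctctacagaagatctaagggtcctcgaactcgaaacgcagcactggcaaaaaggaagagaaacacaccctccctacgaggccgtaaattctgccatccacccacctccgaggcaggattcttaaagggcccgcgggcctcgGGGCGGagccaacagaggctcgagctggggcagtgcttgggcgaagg
Has1: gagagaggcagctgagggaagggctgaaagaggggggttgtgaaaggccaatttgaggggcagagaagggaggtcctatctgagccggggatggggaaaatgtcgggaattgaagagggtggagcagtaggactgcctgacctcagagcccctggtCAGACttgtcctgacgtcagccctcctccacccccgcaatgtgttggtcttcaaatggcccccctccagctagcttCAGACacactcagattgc
Has1 had 2 matches to CAGAC and Hyal1 had 1, on the other strand, in a window of this length that holds the motif in 42.2% of the 32851 promoters of the table. Hyal1 had 2 matches to GGGCGG, which share a base, and Hyal2 had 1, where 32.7% of promoters hold it. None of these 4 windows held TGANTCA, present in 6.75% of promoters, and that of Cd44 held none of the 3 motifs. Promoters of 5 of the 7 members were in the table, and Has2 and Has3 had no entry.

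The wider pathway was taken from 5 lists of 63 genes, of which 42 could be tested. Of these, 21 were higher and 21 lower after TGF-β1, with a median log2 fold change of -0.01, and 1 passed, Spp1. Spp1 encodes osteopontin, a secreted glycoprotein that Cd44 also binds. It rose from log2 signals of 7.39, 7.76 and 7.78 in controls to 11.53, 10.77 and 9.68 after TGF-β1, and replicate 3 was again the lowest treated array. The difference was 3.01 on the log2 scale (SE 0.43, limma adjusted p = 0.0226). With any array other than TGF-β1 replicate 3 left out Spp1 did not pass, at limma adjusted p from 0.0534 to 0.103, nor did it with no filter on dim probes (0.109) or by the methods' t-test after adjustment (0.193). The remaining 41 genes lay between -0.49 and 2.25.

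None of the genes of the sugar precursors passed (0 genes). Of 13 genes tested for the synthesis of the UDP-sugars, 4 were higher and 9 lower, and the median was -0.08. Ugdh, the enzyme that makes UDP-glucuronic acid, had -0.08 (limma adjusted p = 0.722). The lowest were Uap1l1, related to the enzyme that makes UDP-N-acetylglucosamine, at -0.49 (0.222) and Ugp2, which makes UDP-glucose, at -0.47 (0.178), and the highest were Uxs1, which turns UDP-glucuronic acid into UDP-xylose, at 0.33 (0.243) and Gfpt1, the entry enzyme of the hexosamine pathway, at 0.05 (0.784), a sign that turned to -0.0757 with scaling to the 75th percentile. Each adjusted p here is from limma.

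Of 9 other genes of breakdown, 5 were tested and all 5 had positive log2 fold changes, with a median of 0.31 and none past the threshold (0 genes). Hyal3 and Cemip2 were the highest of these, as given above, and Gusb, a lysosomal glucuronidase, had 0.31 (limma adjusted p = 0.306). Hyal4, Hyal5, Hyal6 and Spam1, the last a sperm hyaluronidase, did not rise clear of background on any of the 6.

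Of 7 other receptors, 5 were tested. Stab1, a scavenger receptor of the stabilin family, had a log2 fold change of 2.25 that did not pass (SE 0.65, adjusted p = 0.133 by limma), with 3.29, 4.89 and 3.66 in controls and 6.56, 7.17 and 4.86 after TGF-β1. It was well above background on 1 control array and on all 3 TGF-β1 arrays, and its groups overlapped through TGF-β1 replicate 3. With normexp background the value of Stab1 was 0.85. Without that replicate Stab1 passed, at 2.92 (limma adjusted p = 0.0187). Tlr2, which responds to hyaluronan fragments, had 0.37, while Tlr4 had -0.39 and the endocytic receptor gene Stab2 had -0.45, with limma adjusted p of 0.300, 0.293 and 0.296. The lymphatic receptor gene Lyve1 and Layn were at background on every array.

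Of 19 matrix and secreted proteins that bind hyaluronan, 6 were tested, all 6 with negative log2 fold changes and none past the threshold (0 genes). Itih4, of the inter-α-trypsin inhibitor family, had -0.47 and Hapln3, a link protein gene, had -0.24, with limma adjusted p of 0.246 and 0.223. Vcan, the gene of the large proteoglycan versican, had -0.08 (limma adjusted p = 0.738). Tnfaip6, whose product loads heavy chains onto hyaluronan, was at background on every array, as were Acan, Hapln1 and Ptx3.

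Among 13 tested partners, sheddases and splicing regulators of Cd44, 9 had positive and 4 negative log2 fold changes, and Spp1 was the 1 that passed. None of the ERM genes passed, and their log2 fold changes differed in sign. Msn had log2 signals of 16.02 to 16.04 in controls and 16.27 to 16.29 in the treated cultures. Its log2 fold change was 0.25 (limma adjusted p = 0.189), while Ezr had -0.34 (0.127). Rdx had -0.14 (limma adjusted p = 0.569), and its groups overlapped. In Msn and in Ezr the groups did not overlap and replicate 3 stayed with the other treated arrays, but neither change was past the threshold. Ank3, an ankyrin gene, had 0.49 (limma adjusted p = 0.0935). Adam10, a sheddase of Cd44, had 0.45 (0.263), and Esrp1, which promotes its epithelial splice forms, had 0.09 (0.645), both from limma.

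**Figure D4:**
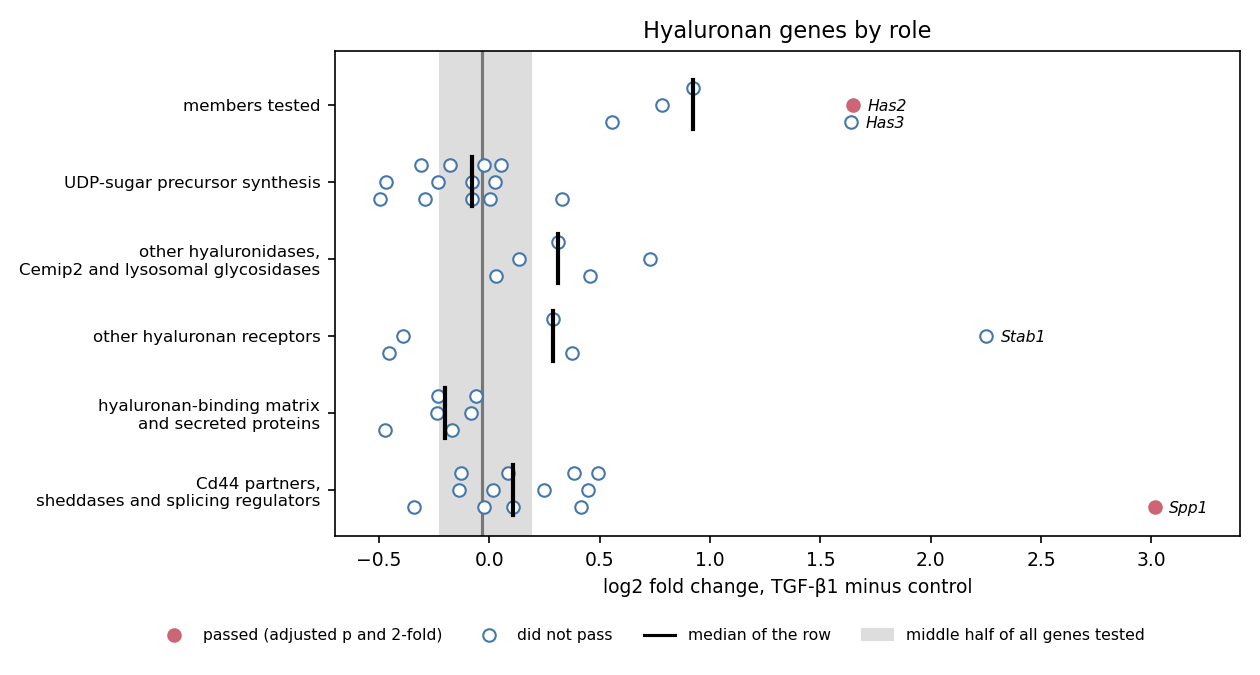
Log2 fold change, TGF-β1 minus control (horizontal axis), of the 5 members tested and of the 42 tested genes of 5 lists by role; each point is a gene, black bars are row medians and the grey band spans the quartiles of all 14345 genes. Has2 and Spp1 are filled because they passed, and row medians run from -0.20 for the binding proteins to 0.92 for the members.

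Fibroblasts make hyaluronan, so fibroblast markers are given beside the synthases. Of 10 markers, 5 were well above background on some array, and Col3a1, Lum, Pdgfrb, Postn and Tcf21 were not on any. Of the 5 tested 2 passed, and Dcn, Pdgfra and Thy1 did not (limma adjusted p = 0.273, 0.484 and 0.176). The summed linear signal of the list was 586 to 657 on the control arrays and 2705, 1208 and 711 on TGF-β1 replicates 1, 2 and 3. Such a sum mostly follows its brightest gene, here Dcn, which did not pass. Dcn had log2 signals of 8.98, 8.81 and 8.96 in controls and 11.10, 9.68 and 8.98 after TGF-β1. The collagen genes Col1a1 and Col1a2 had no control array on which they stood well above background and rose at least 2.16-fold and 2.38-fold, with limma adjusted p of 0.0131 and 0.0162. These bounds hold for the quantile-normalized signal, and both genes entered the filter through the treated arrays. Col1a1 had 0.60 with normexp background, under 2-fold, and did not pass with no filter on dim probes (limma adjusted p = 0.0698) or by the methods' t-test after adjustment (0.154). It also did not pass on leaving out control replicate 1 (limma adjusted p = 0.0589), control replicate 2 (0.0627) or TGF-β1 replicate 2 (0.0644). Thy1, also carried by fibroblasts, had 8.19, 7.65 and 4.60 after TGF-β1, with the last inside the control range of 4.14 to 4.67, and without that array it passed at 3.58 (limma adjusted p = 0.00219). The sum on TGF-β1 replicate 3 was thus near the controls, whereas Has2 on that array was 1.28 above its control mean. Col1a1, Dcn and Thy1 fell from TGF-β1 replicate 1 to 3, as Has2 did. Col1a2 (4.89, 5.48 and 5.38) and Pdgfra (7.00, 6.43 and 6.63) did not, and neither did Has3 (6.33, 5.15 and 5.28). The part of these markers in the change of Has2 was not tested. The summed signal of the epithelial markers was 297298 to 320979 in controls and 277011 to 397310 after TGF-β1, that of the endothelial markers 114 to 140 and 128 to 144, that of the leukocyte markers 10589 to 12310 and 13581 to 14770, and that of the mesothelial markers 170038 to 190564 and 160496 to 189135. The leukocyte sums did not overlap between the groups, and the other 3 did. Non-overlap with TGF-β1 higher occurred in 12.9% of single genes tested. Of the leukocyte markers tested, Cd68 and Itgam were higher without passing, Csf1r differed by 0.01 and Cd3e by -0.24. The members of these marker lists with the largest differences were Foxj1 of ciliated cells at 1.47 (limma adjusted p = 0.00239, passing) and Scgb1a1 of club cells at -2.27 (0.158, and 0.0205 without control replicate 3), Upk1b at -1.22 (0.0849) and Gpm6a at 0.74, Cd68 at 0.90 (0.147) and Itgam at 0.43 (0.134), and Vwf at 0.19 and Esam at -0.19. Upk1b passed with 75th percentile scaling (limma adjusted p = 0.0290), normexp background (0.0437), a trended robust prior (0.0466) and the slide row as a block (0.0467). It also passed by the methods' t-test unadjusted, and with no single array left out. Itgam turned to -0.0644 with the mean of a gene's probes. Vwf was -0.16 to -0.21 without control replicate 2, TGF-β1 replicate 1 or TGF-β1 replicate 2. The part of these markers in the results was not tested either.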

How the data were processed

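RNA of 3 control and 3 TGF-β1-treated 2D-MAO cultures was measured on single-colour Agilent SurePrint G3 mouse arrays, all on 1 slide and scanned at 1 time. The authors deposited spot intensities that Agilent Feature Extraction 11.0.1.1 had corrected for background and had not normalized between arrays. Here control probes and flagged spots were left out, and the intensity was put on the log2 scale and quantile-normalized. A probe was kept where at least 3 of the 6 arrays marked it well above background. A gene was represented by its probe with the highest mean signal. Of 35883 probes with a RefSeq accession, 32991 matched a gene. Groups were taken from the sample labels and compared with limma 3.58.1 in R 4.3.3, adjusting p over all genes tested. The code was tested on simulated data. The members, the gene lists and the tests were chosen with earlier results of these data known. Genes were named by a rule: all members, up to 2 of largest increase and 2 of largest decrease in each pathway list and any that passed, the 3 nearest profiles, and 2 markers a list. Ugdh, Gusb, Vcan, Msn, Adam10, Esrp1, Col1a2, Dcn, Pdgfra, Krt5, Epcam, Csf1r, Cd3e and the neighbours fall outside it and were chosen after their values were seen. Probe positions refer to an earlier genome build than the promoters and are not printed. Alternatives covered scaling, background, filter, probe choice, test, weights, blocks and single arrays left out.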

Additional observations from a re-analysis of the deposited data

How the results depend on the processing

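The limits are the number of arrays, the dimness of the Has2 and Has3 probes in controls, and TGF-β1 replicate 3. Of 89 values of the members under alternatives, 71 kept their direction and side of the threshold, 8 lost the call, 10 gained it and 0 changed sign. The cause of these shifts was not tested. Over the whole array 198 genes passed, against 60 with no filter on dim probes, 807 with array weights, 388 by the methods' t-test unadjusted and 5 after Benjamini-Hochberg, and 56 to 709 with 1 array left out. The number of members that passed was 2 with scaling to the 75th percentile, with a trended robust prior and by the methods' t-test unadjusted, 4 with array weights, 0 with normexp background, with no filter and by the methods' t-test adjusted, and 0 to 4 with 1 array left out, where the pathway lists gave 0 to 2. Has2 lost the call with normexp background (0.85), and at an unmoved 1.65 with no filter and by the methods' t-test adjusted; with 1 array left out it was 1.42 to 1.83. Has3 gained it with 75th percentile scaling (1.80), array weights (1.81), and at an unmoved 1.64 with the trended prior and by the methods' t-test unadjusted; with 1 array left out it was 1.27 to 1.86. Array weights also gave the call to Cd44 (1.43) and Hyal2 (1.06), which with 1 array left out were 0.68 to 1.36 and 0.66 to 1.01, while Hyal1 was 0.38 to 0.76. Gfpt1 turned to -0.0757 with 75th percentile scaling and to -0.0216 with the mean of a gene's probes, as did Itgam, a leukocyte marker, to -0.0644. Vwf, an endothelial marker, turned to -0.16 without control replicate 2 and to -0.21 without TGF-β1 replicate 1 or 2, and with 1 array left out it ranged from -0.21 to 0.98.

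With the replicate number as a block, 103 genes passed over the whole array, 0 members and 0 genes of the pathway lists, and Has2 kept its log2 fold change of 1.65 with a limma adjusted p of 0.119. Spp1 and Col1a1 lost the call under the block (limma adjusted p = 0.0765 and 0.0673). With the slide row as a block instead, 237 genes passed over the whole array, and Has2 kept the call narrowly (limma adjusted p = 0.0494). Same-numbered arrays deviated together with r of -0.01, 0.33 and -0.05, and not every array correlated best with its own number. The deviations within a group are tied to each other through its mean. These values therefore cannot show whether same-numbered samples share a batch or a donor, and the labels give only the number.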
